A study of Mus musculus with 4 samples.

Results

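The ER luminal chaperones described here are 10 genes whose protein products fold, hold or quality-control new secretory proteins inside the endoplasmic reticulum (ER): Hspa5, Hyou1, Hsp90b1, Sdf2l1, Dnajb9, Dnajb11, Dnajc3, Canx, Calr and Manf. They were taken by gene symbol from the 35275 genes listed in a liver read count table, and all 10 were found. Liver RNA was sequenced from 16 female mice in 4 groups, with the livers of 4 mice pooled into 1 library per group. All mice carried the Apoa2c allele, which encodes an amyloid-prone form of apolipoprotein A-II. The labels give the strain as AKR/J and the genotype as Apoa2c congenic, whereas the study's methods name R1.P1-Apoa2c mice, a SAMR1 background with the allele of SAMP1. Livers were taken at 26 weeks of age, at the end of a 16-week intervention. VS mice received vehicle and were sedentary, VI mice received vehicle and high-intensity interval training (IT) on a treadmill, FS mice received an intravenous injection of AApoAII amyloid fibrils and were sedentary, and FI mice received fibrils and IT. The fibril injection seeds systemic AApoAII amyloidosis, in which apolipoprotein A-II made largely by the liver is deposited as fibrils outside cells. The study reported less amyloid in the livers of FI than of FS mice, so these groups did not carry the same amyloid load. Because each group is a single pool, spread between mice was not measured, and every interval given for 1 library or for a ratio of 2 covers counting error only.

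The ER lumen is where hepatocytes fold albumin, apolipoproteins and the other plasma proteins they secrete. When unfolded proteins accumulate there, the sensors IRE1, PERK and ATF6 start the unfolded protein response (UPR), a transcriptional programme whose classic targets include the chaperones of this compartment. Within the set, Hspa5 (BiP) is the HSP70 of the ER, J proteins deliver substrates to it and stimulate its ATPase, Hyou1 releases its ADP, Hsp90b1 (GRP94) is the HSP90 of the ER, and Canx and Calr hold glycoproteins through their sugars.

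The promoters were examined first, because many UPR targets carry an ER stress response element (ERSE), in which a CCAAT core bound by NF-Y and a CCACG core bound by ATF6 or XBP1 are separated by 9 bases. RefSeq promoter windows on GRCm38.p6, from 250 bases before to 50 bases after the gene start, were matched by symbol for 8 of the 10 genes, all but Hyou1 and Manf. The ERSE, spelled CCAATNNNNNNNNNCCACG and searched on both strands, was present in 39 of 32851 windows (0.119%) and in 5 of the 8 chaperone windows. The type II form, spelled ATTGGNCCACG, was present in 12 windows (0.0365%), among them that of Dnajb11. The ERSE is known from UPR targets, and chaperones of this compartment are classic UPR targets. These shares therefore describe the windows and are no independent test of enrichment. The 7 matches are given here as read along the coding strand, with the cores in capitals, to let their spacers and orientation be compared.
Hspa5: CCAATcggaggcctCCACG
Hsp90b1, distal: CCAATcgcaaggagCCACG
Hsp90b1, proximal: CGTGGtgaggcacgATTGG
Calr: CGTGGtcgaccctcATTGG
Canx: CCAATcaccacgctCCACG
Dnajc3: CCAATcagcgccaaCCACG
Dnajb11, type II: ATTGGcCCACG

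The Hspa5 element (chr2:34772025-34772043) ended 47 bases before the RefSeq start. As listed with the counts, the gene starts further upstream, at 34771970, so that the element lies inside the listed span. Hsp90b1 had one match in each orientation, ending 194 (chr10:86705638-86705656) and 89 bases (chr10:86705533-86705551) before its start. The match in Calr (chr8:84847075-84847093) lay in reverse orientation 144 bases before the start, and those in Canx (chr11:50325800-50325818) and Dnajc3 (chr14:118937827-118937845) ended 127 and 87 bases before theirs. That of Dnajb11 (chr16:22857852-22857862) lay after the start. The ERSE matches differed in their 9 spacer bases, whereas the cores are identical by the definition of the search.

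A set of 3 windows is printed in full because their genes differ most in what the libraries showed: Hspa5 was the most abundant of the set per gene length in 3 of the 4 libraries, Canx changed least although it holds an ERSE, and Sdf2l1 changed most although no ERSE in these letters lies in its window. Capitals mark the cores of an ERSE, so that the Sdf2l1 window has none. They span chr2:34771840-34772139 on the plus strand for Hspa5, chr11:50325624-50325923 on the minus strand for Canx, and chr16:17132334-17132633 on the minus strand for Sdf2l1.
Hspa5: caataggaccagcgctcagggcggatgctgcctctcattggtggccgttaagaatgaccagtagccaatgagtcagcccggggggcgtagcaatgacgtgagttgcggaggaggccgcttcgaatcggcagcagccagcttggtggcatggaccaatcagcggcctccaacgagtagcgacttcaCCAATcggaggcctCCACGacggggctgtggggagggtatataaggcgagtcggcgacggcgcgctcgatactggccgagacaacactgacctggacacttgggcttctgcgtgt
Canx: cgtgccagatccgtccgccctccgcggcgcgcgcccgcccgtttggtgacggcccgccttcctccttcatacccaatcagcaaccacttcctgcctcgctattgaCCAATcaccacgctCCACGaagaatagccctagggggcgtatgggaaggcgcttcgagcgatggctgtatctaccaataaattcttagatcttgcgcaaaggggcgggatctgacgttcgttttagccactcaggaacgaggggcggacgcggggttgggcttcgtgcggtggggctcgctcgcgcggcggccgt
Sdf2l1: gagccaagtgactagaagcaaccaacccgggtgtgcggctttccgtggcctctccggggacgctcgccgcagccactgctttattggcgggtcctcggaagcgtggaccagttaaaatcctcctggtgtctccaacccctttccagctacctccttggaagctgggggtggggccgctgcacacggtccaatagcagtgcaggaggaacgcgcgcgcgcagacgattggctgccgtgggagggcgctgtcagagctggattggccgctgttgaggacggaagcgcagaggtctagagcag

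Single core motifs were common: CCACG occurred in 32.8% and CCAAT in 37.4% of all windows, and each of the 8 chaperone windows held at least one of both. A match is a string of letters, and binding was not measured.

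In mm10 coordinates, as the count table lists them, the genes lie on 8 chromosomes. Hspa5 is at chr2:34771970-34776531, Hyou1 at chr9:44379490-44392369, Hsp90b1 at chr10:86690209-86705509 and Sdf2l1 at chr16:17130138-17132383. Dnajb9 is at chr12:44205897-44210068, Dnajb11 at chr16:22857845-22879634 and Dnajc3 at chr14:118937932-118981702. Canx is at chr11:50293961-50325673, Calr at chr8:84841850-84846934 and Manf at chr9:106838312-106891979. All are protein coding, and 7 of them have the same start and end in GENCODE M21. The listed span of Manf overlaps Rbm15b on the same strand (352 to 583 counts per library) and Vprbp on the opposite strand (426 to 693 counts), and that of Hsp90b1 overlaps Gm15344 and 1810014B01Rik (22 to 60 counts), so that reads in shared stretches cannot be assigned to one gene with certainty.

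The libraries held 23442935 (VS), 24524287 (VI), 24801185 (FI) and 28814802 (FS) counts, and at these depths 3 counts correspond to 0.102 to 0.127 CPM (counts per 1000000 of the scaled library total). CPM were scaled by TMM, a library size correction that assumes that most genes do not change. Hepatocyte markers were high throughout (sum of 6 genes, 140141 to 155533 CPM). The VS library stood apart in 10 skeletal muscle markers, which summed to 76.3 CPM in VS and to 9.85, 0.982 and 0.827 in VI, FS and FI. Fibril libraries had more of 8 neutrophil and myeloid precursor markers (17.4 in FS and 13.1 in FI against 2.58 in VS and 3.16 in VI), mostly through Prtn3 (13.1 and 10.1 against 0.593 and 1.11), and of 7 Kupffer cell and macrophage markers (329 and 311 against 210.2 and 262). Without Prtn3 the neutrophil list summed to 4.34 and 3.06 CPM against 1.99 and 2.05, Mpo, Camp, Ngp, Elane and Ltf each being at 0.169 CPM or less in every library. Plasma cell markers summed to 416 (VS), 446 (VI), 533 (FS) and 520.1 CPM (FI), or without Xbp1, itself a UPR gene, to 262, 306, 279.7 and 321. Most of the latter was Sdc1 (239 CPM in VS, 288 in VI, 296 in FI and 246 in FS), which hepatocytes also express, and the other 6 plasma cell genes summed to 23.0 in VS, 17.1 in VI, 25.5 in FI and 33.7 in FS. Of these, Igkc was called higher with amyloidosis in the model described below (0.82 ± 0.15, adjusted p = 0.025), at 10.4, 7.14, 13.3 and 17.5 CPM in that order, and Jchain, at 3.13, 3.78, 4.88 and 6.61 CPM, was not (adjusted p = 0.14). Of 8 pancreatic acinar genes, 5 (Cpa1, Cpb1, Cel, Amy2b and Prss2) were at 0 in every library and the list summed to at most 2.57 CPM. The part of these cells in the results below was not tested, and in pooled tissue a change in cell numbers cannot be told apart from a change in RNA per cell.

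The chaperones together took 0.148% of all counts in VS, 0.172% in VI, 0.298% in FI and 0.378% in FS. Their summed level was 1474 CPM in VS, 1734 in VI, 3058 in FI and 3694 in FS. The set was thus lowest in untreated livers, slightly higher after IT alone, highest in sedentary fibril livers and intermediate to high in trained fibril livers. The order VS, VI, FI, FS held beyond counting error for 6 of the 10 chaperones and for 0.731% of all genes, as described gene by gene below.

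**Figure D1:**
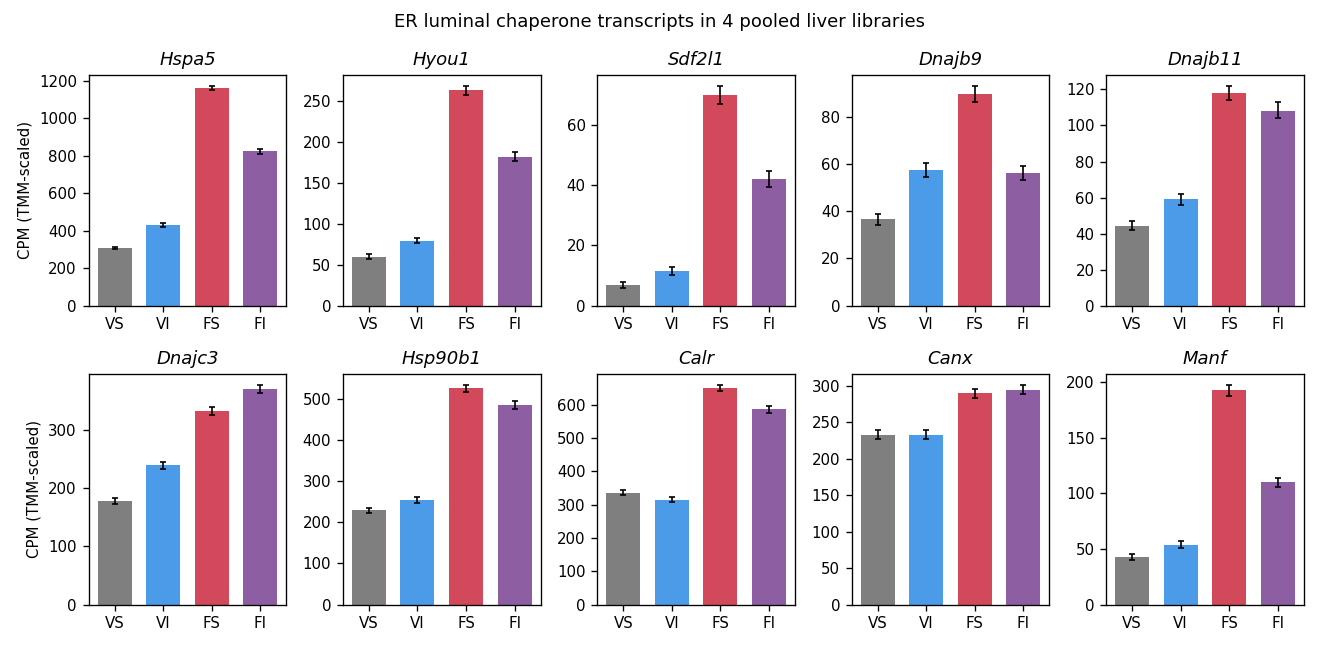
TMM-scaled CPM of each of the 10 ER luminal chaperones (y axes, each from 0) in the 4 pooled liver libraries VS, VI, FS and FI (x axes). Bars are single libraries and error bars are exact Poisson 95% intervals. Fibril bars (red and purple) stand above vehicle bars (grey and blue) in every panel except Dnajb9, where VI (57.3) and FI (56.0) are level.

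The HSP70 system of the ER was described first. Hspa5, the central chaperone and a repressor of the UPR sensors, was at 308 CPM in VS, 430.3 in VI, 823 in FI and 1161 in FS. All 4 levels were separated by more than their counting error. Hyou1, the large HSP70 relative that serves Hspa5 as a nucleotide exchange factor, followed the same order, with 60.0 CPM in VS, 79.7 in VI, 182 in FI and 264 in FS. Sdf2l1, which binds Hspa5 together with ER J proteins and keeps misfolded substrates soluble, was at 6.73 CPM in VS (159 counts), the lowest count in the set. It reached 11.4 in VI, 42.0 in FI and 69.8 in FS (2061 counts). These genes ranked the libraries in the same way, with both fibril libraries above both vehicle libraries. For Hspa5, the study also ran qPCR on livers of individual mice, and western blots. It reported higher mRNA and protein in amyloidosis-induced mice than in the vehicle groups.

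Among the J proteins, Dnajb9 (ERdj4), which recruits Hspa5 to IRE1 and to substrates for degradation, had its own pattern. It was at 36.5 CPM in VS, 57.3 in VI, 56.0 in FI and 89.6 in FS, so that only FS exceeded both vehicle libraries and the levels of VI and FI were not separated by counting error. Dnajb11 (ERdj3), the J protein for nascent chains, was at 44.5 CPM in VS, 59.0 in VI, 108 in FI and 118 in FS. Dnajc3 (P58IPK), the remaining J protein of the set, was at 178 CPM in VS, 239 in VI, 371 in FI and 332 in FS. It was the only gene of the set that was higher in FI than in FS beyond counting error.

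The HSP90 and lectin chaperones came next. Hsp90b1, which folds integrins and Toll-like receptors, was at 229 CPM in VS, 254 in VI, 485 in FI and 526 in FS. Calr, the soluble lectin chaperone, was at 336 CPM in VS, 315 in VI, 586 in FI and 651 in FS, and was the only gene lower in VI than in VS beyond counting error. Canx, its membrane-anchored relative, was at 233 CPM in both vehicle libraries, 290.0 in FS and 295 in FI, with no separation within either pair. Manf, a small secreted and ER-resident protein that binds Hspa5, was at 43.0 CPM in VS, 54.0 in VI, 110.0 in FI and 193 in FS.

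The first comparison asked how the chaperones differed with amyloidosis. In sedentary mice, all 10 were higher in FS than in VS beyond the exact binomial 95% interval, as were 27.2% of all genes, and 7 of them were more than 2-fold higher, where 3.6% of the 12180 genes that reached 1 CPM in any library were that much higher. The log2 ratio was largest for Sdf2l1 at 3.37 (3.14 to 3.62), a 10.3-fold difference that ranked 16 of all genes. Manf (2.17), Hyou1 (2.14) and Hspa5 (1.91, 1.88 to 1.95) followed, at ranks 51, 57 and 80. The other genes past 2-fold were Dnajb11 (1.40), Dnajb9 (1.29) and Hsp90b1 (1.20). Calr at 0.96 and Dnajc3 at 0.90 lay just under 2-fold, and Canx had the smallest ratio at 0.32 (0.27 to 0.37). At a limit of 1.5-fold, 9 of the 10 and 10.1% of all genes were higher. The median of the set was 1.35, and that of all genes 0.019.

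In trained mice, the comparison of FI with VI uses neither VS nor FS, and so neither of the libraries compared above. The chaperones were again higher, 9 of 10 beyond counting error (23.1% of all genes), but less so. Past 2-fold were 3 of them, Sdf2l1 at 1.88 (1.69 to 2.08), Hyou1 at 1.19 (1.11 to 1.27) and Manf at 1.03 (0.93 to 1.12), the last with an interval that includes 2-fold, against 2.59% of all genes. Hspa5 (0.94), Hsp90b1 (0.93), Calr (0.89) and Dnajb11 (0.88) lay close together just below. Dnajc3 was at 0.63 and Canx at 0.34, the latter nearly as in sedentary mice. Dnajb9 showed no detectable difference, at −0.035 (−0.14 to 0.074). Past 1.5-fold were 8 members and 7.9% of all genes, and the median of the set was 0.91 against 0.010 for all genes.

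These 2 ratios share no library, and the additive model combines them. Each gene's counts were fitted with amyloidosis, coded as fibril injection against vehicle, and IT as separate factors. This left 1 residual degree of freedom, which is the departure from additivity. FS and FI were coded alike, although the study reported less liver amyloid in FI. By the quasi-likelihood test of edgeR, adjusted over 11760 genes by the Benjamini-Hochberg method, 8 of the 10 chaperones rose with amyloidosis at an adjusted p below 0.05 and none fell, where 2.64% of all genes were called higher and 1.96% lower. The rise was 1.42 ± 0.23 (SE, log2, 4 libraries) for Hspa5 with an adjusted p of 0.022, 1.66 ± 0.22 for Hyou1 with 0.012 and 2.60 ± 0.38 for Sdf2l1 with 0.041. Hsp90b1 rose by 1.07 ± 0.13 (adjusted p = 0.0081), Dnajb11 by 1.14 ± 0.15 (0.0086) and Calr by 0.92 ± 0.12 (0.0095), which gave them smaller p-values than the genes with larger changes. Dnajc3 rose by 0.77 ± 0.13 (0.017) and Manf by 1.60 ± 0.28 (0.042). Not called were Dnajb9, at 0.63 ± 0.34 with an adjusted p of 0.37, and Canx, at 0.33 ± 0.12 with 0.15. The calls rest on the spread of a single residual degree of freedom shared across genes: with amyloidosis as the only factor none of the 10 passed (9 had an unadjusted p below 0.05), and none did when the VS library was also left out (8 unadjusted), although all 10 changes stayed positive in both fits. The call of Manf was also lost under both other scalings and in DESeq2's Wald test, that of Sdf2l1 under both other scalings and without the filter on low counts, and that of Hspa5 in DESeq2's Wald test (adjusted p = 0.061).

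**Figure D2:**
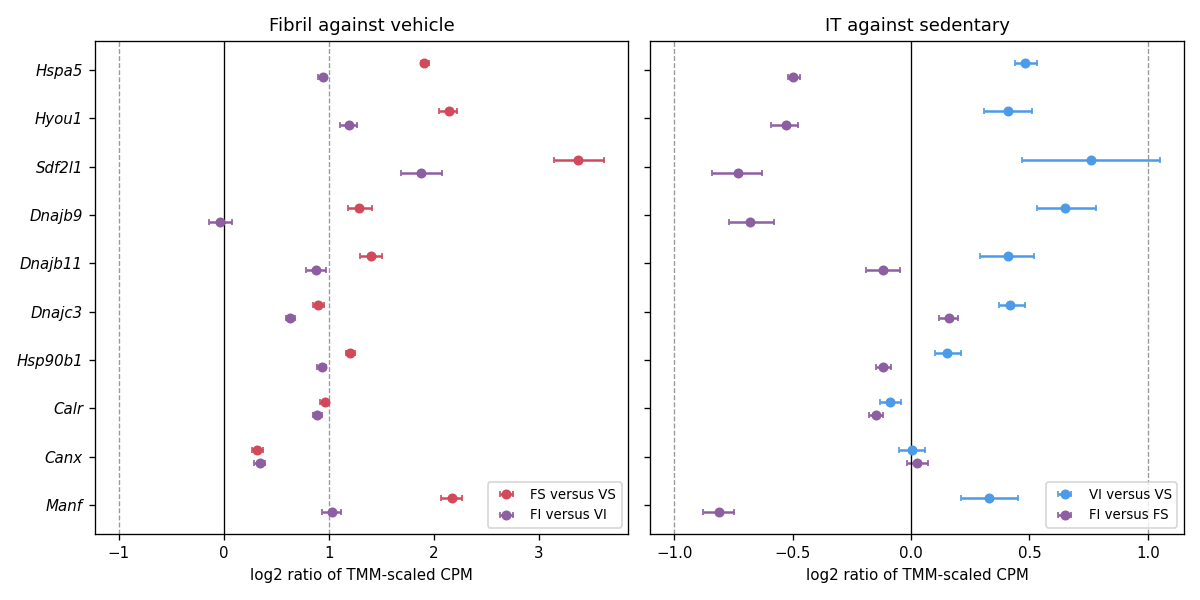
Log2 ratios of TMM-scaled CPM (x axes) for the 10 chaperones (rows), with fibril against vehicle livers on the left (red, FS versus VS, purple, FI versus VI) and IT against sedentary livers on the right (blue, VI versus VS, purple, FI versus FS). Error bars are 95% counting intervals and dashed lines mark 2-fold. On the left 10 and 9 of the 10 ratios lie above 0 beyond their interval, and on the right blue points lie mostly above and purple points mostly below 0.

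The next comparison asked how IT alone differed from the sedentary state in vehicle mice. Of the 10 chaperones, 8 were higher in VI than in VS beyond counting error, 1 was lower and 1 was level, where 22.3% of all genes were higher by that measure, but none was past 2-fold, where 1.54% of all genes were. Sdf2l1 at 0.76 (0.47 to 1.05) and Dnajb9 at 0.65 (0.53 to 0.78) passed 1.5-fold, as did 5.34% of all genes. Hspa5 at 0.48, Dnajc3 at 0.42, Hyou1 and Dnajb11 at 0.41 and Manf at 0.33 formed the middle, and Hsp90b1 was at 0.15. The lectin chaperones did not share this difference: Calr was at −0.089 (−0.13 to −0.043) and Canx at 0.003 (−0.050 to 0.057). The median was 0.41, against 0.004 over all genes. This ratio uses the VS library with its muscle transcripts, and shares that library with the FS versus VS ratio.

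In fibril mice, IT went with the opposite sign. In FI, 8 of the 10 were lower than in FS beyond counting error (23.9% of all genes), Dnajc3 was higher at 0.16 (0.12 to 0.20) and Canx was level at 0.027 (−0.018 to 0.073). Lower by more than 1.5-fold were 3 genes, Manf at −0.81 (−0.88 to −0.75), Sdf2l1 at −0.73 (−0.84 to −0.63) and Dnajb9 at −0.68 (−0.77 to −0.58), against 7.55% of all genes, and none was past 2-fold, where 2.53% of all genes were. Hyou1 at −0.53 and Hspa5 at −0.50 came next. Calr at −0.15, Hsp90b1 at −0.12 and Dnajb11 at −0.12 were within 1.11-fold of FS. The median of the set was −0.32 and that of all genes 0.002.

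With opposite signs for 7 of the 10, the model fitted small IT terms. None of the 10 was called for IT by edgeR (adjusted p = 0.34 to 0.99), none had an unadjusted p below 0.05, and DESeq2's Wald test and limma-voom also called none, where edgeR called 1.34% of all genes. The estimates ran from −0.26 ± 0.27 (SE) for Manf to 0.29 ± 0.13 for Dnajc3, which was higher with IT in both pairs. In the additive fits with DESeq2 size factors, without the low-count filter and with limma-voom, 1 member each had an unadjusted p below 0.05. An additive term averages VI versus VS with FI versus FS, and does not describe a gene whose ratios differ in sign.

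The difference between the IT log2 ratios, fibril minus vehicle, gives that departure directly. It was −1.49 (−1.79 to −1.19) for Sdf2l1, −1.33 (−1.48 to −1.17) for Dnajb9, −1.14 (−1.28 to −1.01) for Manf, −0.98 (−1.03 to −0.93) for Hspa5 and −0.94 (−1.06 to −0.83) for Hyou1. Smaller differences were found for Dnajb11 (−0.53), Hsp90b1 (−0.27) and Dnajc3 (−0.27), and Calr (−0.063, −0.12 to −0.008) and Canx (0.024, −0.046 to 0.094) had nearly none. The intervals again cover counting error only, and with 1 pool per group the difference has no test. The median over the set was −0.74, and that over all genes −0.010.

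How far FI livers stood above the untreated VS level, relative to FS livers, was expressed as the FI minus VS difference in CPM in percent of the FS minus VS difference. The values ranged from 36.7% to 125%. It was 36.7% (29.9 to 43.4) for Dnajb9, 44.6% (41.3 to 47.9) for Manf, 55.8% (50.9 to 60.8) for Sdf2l1, 60.0% (56.8 to 63.2) for Hyou1 and 60.4% (58.7 to 62.0) for Hspa5. The excess in FI was closer to that in FS for Calr (79.4%), Hsp90b1 (86.0%) and Dnajb11 (87.3%). Canx at 109.6% (92.8 to 126) was not separated from 100%, and Dnajc3 at 125% (117 to 132) was above it. Compared directly with VS, all 10 were higher in FI beyond counting error (28.4% of all genes) and 7 were past 2-fold, against 4.37% of all genes, with a median of 1.18.

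**Figure D3:**
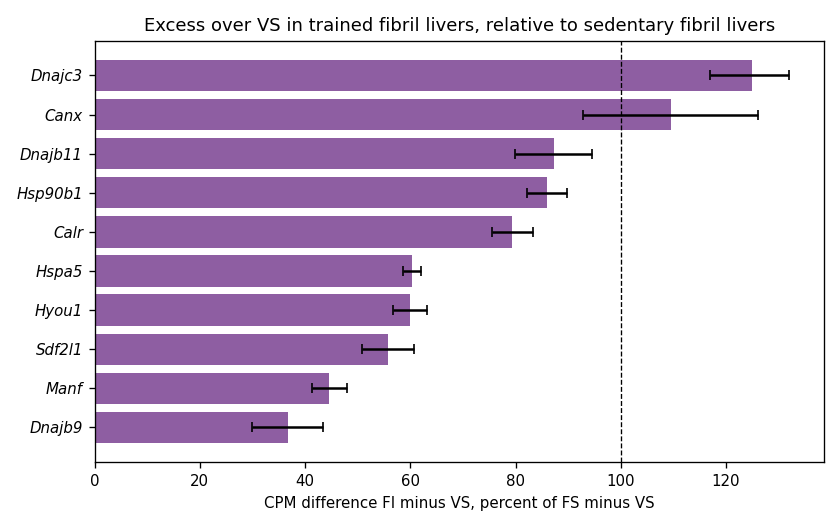
CPM difference FI minus VS as a percentage of FS minus VS (x axis) for each chaperone (rows), where 100% (dashed) means that trained fibril livers exceeded VS as much as sedentary fibril livers did. Bars are single values from 3 pooled libraries with 95% counting intervals by the delta method. Dnajb9 (36.7%), Manf (44.6%) and Sdf2l1 (55.8%) are lowest, and Canx (109.6%) and Dnajc3 (125%) lie beyond 100%.

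Levels of different genes were compared per gene length, as FPKM. The FPKM of the set summed to 509 in VS, 589 in VI, 1044 in FI and 1367 in FS. In VS the most abundant was Calr (155), ahead of Hspa5 (119) and Hsp90b1 (71.5), whereas in VI, FS and FI it was Hspa5 (164, 455 and 307). The share of Hspa5 in the FPKM sum was 23.3% in VS, 27.8% in VI, 29.4% in FI and 33.3% in FS, while that of Calr and Canx together was 41.1%, 33.5%, 31.5% and 27.4% in the same order. Calr alone took 30.4% in VS, 24.4% in VI, 25.1% in FI and 22.3% in FS, and Canx 10.7%, 9.19%, 6.45% and 5.08%. The composition therefore differed as well as the sum, with a larger share of Hspa5 and a smaller share of Canx in fibril livers, while the share of Calr was lower in FS than in VS and slightly higher in FI than in VI.

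Within the HSP70 system, the exchange factor Hyou1 kept a steadier proportion than the J proteins of the set. Hyou1 stood at 10.3%, 9.83%, 12.0% and 11.7% of the Hspa5 FPKM in VS, VI, FS and FI. Dnajb9, Dnajb11 and Dnajc3 together stood at 60.6%, 60.8%, 35.7% and 45.8% of it. Sil1, an exchange factor outside the set, kept no such proportion. Its FPKM was 31.4, 31.6, 28.0 and 27.3 in that order, against 119, 164, 455 and 307 for Hspa5. The Hspa5 to Canx ratio of FPKM was 2.17 in VS, 3.02 in VI, 4.56 in FI and 6.56 in FS. Sdf2l1 had the lowest FPKM of the set in both vehicle libraries (6.12 and 10.2), but at 64.6 in FS it exceeded Hyou1, Dnajb9 and Dnajb11.

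**Figure D4:**
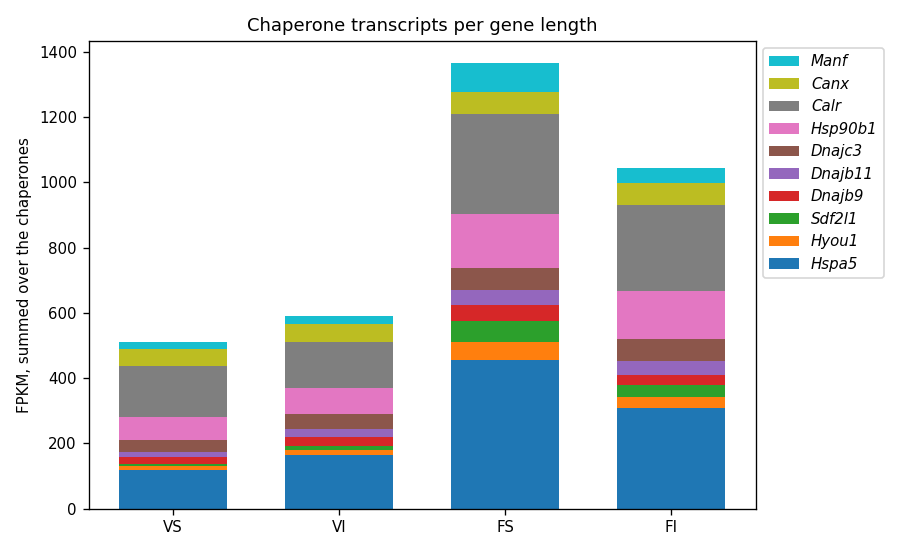
FPKM (y axis) of the 10 chaperones stacked for each pooled library (x axis), 1 colour per gene. The sums are 509 in VS, 589 in VI, 1044 in FI and 1367 in FS, and the Hspa5 segment at the base takes 23.3%, 27.8%, 29.4% and 33.3% of them.

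Other genes of ER protein handling were compared as fixed lists. Among 6 other ER J proteins and HSP70 partners, 1 was called higher with amyloidosis, Hspa13 (1.12 ± 0.21, adjusted p = 0.036), an ATPase of the HSP70 family, and the median log2 ratio was 0.38 in FS versus VS and 0.091 in FI versus VI. Of 8 calnexin cycle partners, Uggt1, the sensor that returns unfolded glycoproteins to the lectins (0.89 ± 0.13), and Pdia3, the isomerase bound to both lectins (0.85 ± 0.12), were called, with medians of 0.40 and 0.17. The partner genes of Canx were therefore not uniformly flat, since Uggt1 and Pdia3 had FS versus VS ratios of 1.07 and 0.88 beside 0.32 for Canx.

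Of 10 disulfide isomerases and ER oxidases, 3 were called higher: Creld2 (2.23 ± 0.20), Pdia4 (1.22 ± 0.13) and Pdia6 (adjusted p = 0.0068), and the medians were 0.96 and 0.26. Among 11 genes of ER-associated degradation, which exports misfolded proteins to the proteasome, Derl3 (3.50 ± 0.37) and Syvn1 (1.23 ± 0.19), the ubiquitin ligase of the pathway, were called, with medians of 0.49 and 0.12. Derl3 went from 0.762 CPM in VS and 1.81 in VI to 12.0 in FI and 17.3 in FS. Of 10 UPR sensors and transcription factors, Xbp1 alone was called (0.61 ± 0.12, adjusted p = 0.03), at 154 CPM in VS, 140.5 in VI, 199 in FI and 253 in FS. Gene-level counts do not separate its spliced from its unspliced form. Ddit3 (CHOP) was between 6.49 and 9.99 CPM in all libraries, and Atf4 between 101 and 124. None of the genes on these 5 lists was called lower with amyloidosis, and none was called for IT in either direction.

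Paralogs and cytosolic or mitochondrial relatives gave no call in the higher direction. Of 5 paralogs, Sdf2 and Calr3 were measurable, neither was called, and Sdf2 lay between 31.5 and 35.5 CPM in the 4 libraries. Among 13 measurable cytosolic and mitochondrial chaperones of the same families, none was called higher with amyloidosis and 1, the stress-inducible HSP70 gene Hspa1b, was called lower (−1.38 ± 0.14, adjusted p = 0.0045). Hspa1b also fell with IT (−1.33, adjusted p = 0.007). It was at 49.5 CPM in VS, 17.9 in VI, 7.73 in FI and 17.3 in FS, and its reads are uncertain because Hspa1a is nearly identical. The study's own qPCR on livers of individual mice found Hspa1b mRNA unchanged by IT and by amyloidosis, unlike these pooled libraries. The medians of that list were −0.38 in FS versus VS and −0.12 in FI versus VI, beside 1.35 and 0.91 for the ER luminal chaperones. In FI versus VI, 1 gene of the list was past 2-fold higher, Hsp90aa1 (1.16), and 1 lower, Hspa1b (−1.21). Hsp90aa1 was at −0.62 in FS versus VS, and the model did not call it (0.26 ± 0.50, adjusted p = 0.82). Hspa8, the constitutive cytosolic counterpart of Hspa5, was at 1153 CPM in VS, 900.1 in VI, 749 in FI and 703 in FS and was not called (adjusted p = 0.12). Hspa9, the mitochondrial counterpart, was at 528 to 667 CPM.

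**Figure D5:**
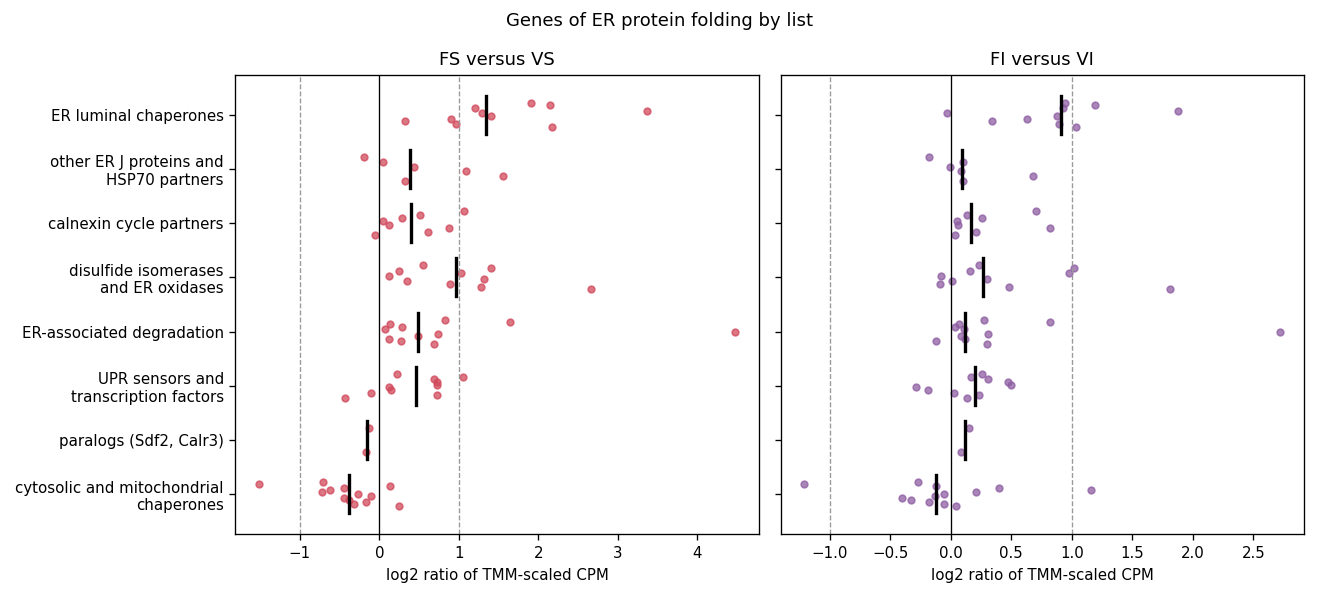
Log2 ratios of TMM-scaled CPM (x axes) for FS versus VS (left) and FI versus VI (right), 1 point per gene, for the ER luminal chaperones and 7 lists of related genes (rows), with list medians as black bars and dashed lines at 2-fold. The medians of the ER luminal chaperones are 1.35 and 0.91, and those of the cytosolic and mitochondrial chaperones −0.38 and −0.12.

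The genes most like Hspa5 were found by the Euclidean distance of log2 CPM, centred on each gene's mean over the 4 libraries, among 9348 genes that reached 5 CPM in any library. Of the set itself, Hyou1 ranked 6 and Manf 9 in that order, Dnajb11 18, Hsp90b1 40, Calr 103, Dnajc3 166 and Dnajb9 173, with Canx at 1118 and Sdf2l1 at 1259. The last of these departed in opposite ways: Canx differed less between the libraries and Sdf2l1 more than Hspa5. Outside the set, the 10 nearest had distances of 0.179 to 0.341. They included Dnajc12 (0.179), a cytosolic J protein, Piga (0.190), an enzyme of GPI anchor synthesis at the ER, Gfpt1 (0.293), the entry enzyme of the hexosamine pathway, and Hspa13 (0.341), and also Sept11 (0.191), Brca1 (0.206), B3galt1 (0.263), Golt1b (0.324) and Lpin3 (0.332). Dnajc12 was at 12.8 CPM in VS, 16.5 in VI, 36.7 in FI and 44.9 in FS. Brca1, Golt1b and Lpin3 reached 5 CPM only in FS (7.89, 6.03 and 5.49 CPM), the library where Hspa5 was highest. The limit admitted them through that peak alone, so their nearness is partly set by it. With 4 libraries, likeness of this kind describes their order and spacing and nothing further.

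The promoter matches did not follow the size of the change among the 8 genes with a window. Hyou1 and Manf, with FS versus VS log2 ratios of 2.14 and 2.17, had no window. Genes with an ERSE in the window had FS versus VS log2 ratios of 1.91 (Hspa5), 1.20 (Hsp90b1), 0.96 (Calr), 0.90 (Dnajc3) and 0.32 (Canx). Dnajb11, with the type II form, was at 1.40, and Dnajb9 and Sdf2l1, with neither in these letters, were at 1.29 and 3.37. The Dnajb9 window (chr12:44210019-44210318, minus strand) was set by the RefSeq start. GENCODE M21 starts that gene at 44210326, so the window holds no sequence before the GENCODE start.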

How the data were processed

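Liver tissue was pooled by group before RNA extraction, giving 4 libraries. The authors deposited raw gene counts, made per the submitters' processing notes with fastp 0.23.2, STAR 2.5, HTSeq 0.6.1 and mm10. The deposited FPKM equalled values recomputed from counts, gene lengths and totals (largest relative difference 3.1e-07). Whether counting used strand is not stated in them. Members and gene lists were chosen with earlier results of these data known.

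Counts were analysed in R 4.3.3 with edgeR 4.0.16 (TMM), limma 3.58.1 and DESeq2 1.42.0, and in Python 3.11.15. Ratios used the 12180 genes that reached 1 CPM in any library, a prior of 0.5 counts and exact conditional binomial (Clopper-Pearson) 95% intervals, with Poisson intervals for levels. Reads are not independent molecules, so intervals cover counting error only. The additive quasi-likelihood model (robust, 3 coefficients) used the 11760 genes that reached 1 CPM in 2 or more libraries, and Benjamini-Hochberg adjustment; SE is the log2 change divided by the root of F. The model was tested on simulated data that held no departure from additivity, unlike several of the chaperones. That check therefore does not cover such departures. All 10 members and all list genes could be named, and likeness was ranked against Hspa5. Of 127 list genes, 2 were found through another symbol. Alternatives covered scaling, filters, other tools, 1 factor alone and a 1.5-fold limit. Protein sequences were not used here.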

Additional observations from a re-analysis of the deposited data

Results flagged for a closer look

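For 7 of the 10 chaperones, IT went with opposite signs in the vehicle and fibril mice: VI exceeded VS for each, while FI lay under FS. The difference of the IT log2 ratios, fibril minus vehicle, was −1.49 for Sdf2l1, −1.33 for Dnajb9, −1.14 for Manf, −0.98 for Hspa5, −0.94 for Hyou1, −0.53 for Dnajb11 and −0.27 for Hsp90b1. The difference was not tested, since each group is 1 pooled library, and the 4 libraries also differed in muscle markers (high in VS), in macrophage markers and in Prtn3, which made up most of the neutrophil sum in the fibril libraries (both high in FS and FI), whose part was not tested. The same pair of signs, without regard to size, was present in 2434 of 12180 genes (20.0%).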

How the results depend on the processing

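With other scalings, filters and tools, 6 to 8 of the 10 chaperones were called higher with amyloidosis, and none was called for IT. The number called with amyloidosis was 0 with the factor alone (2 residual degrees of freedom, adjusted p = 0.074 to 0.44) and 0 with the factor alone without the VS library, a fit added after seeing the data (adjusted p = 0.29 to 0.9), and the cause was not tested. All amyloidosis estimates stayed positive. Of 90 alternative values, 23 of called members lost their call and 67 did not change sides. A 1.5-fold limit, wider by construction, gave 2 members in VI versus VS, 8 in FI versus VI and 3 in FI versus FS. The median log2 ratio of FI versus FS was −0.39 with total counts and −0.39 from FPKM with a pseudocount of 1, where the median of all genes moved to −0.069 and −0.050. Of 120 single ratios, 13 moved by more than counting error.

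Over all genes, edgeR called 540 with amyloidosis, against 8 with the factor alone, 0 with that fit without VS and 1519 without the filter. For IT it called 157, against 0 with the factor alone, 28 without VS, 91 at 5 CPM, 241 with DESeq2 size factors, 276 with total counts and 740 without the filter. Leaving out a library from the additive model was not possible, since no residual degree of freedom remains. No paired analysis was possible because each group holds 1 pooled library.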
